A study of Mus musculus with 13 samples.

Results

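Kdm6a, Kdm5c, Eif2s3x, Ddx3x, 5530601H04Rik, Pbdc1, Car5b, Kantr and Utp14a are X-linked mouse genes listed as escaping X inactivation, and their messenger or noncoding RNA was followed here in 13 bulk RNA-seq libraries of 2 female cell types. They were found by matching the gene identifiers of the deposited count table to their symbols, which gave 9 of 38377 identifiers, and 1472 identifiers were X-linked. All 9 passed the filter on low counts in every fit. The cells were extraembryonic endoderm (XEN) cells and epiblast stem cells (EpiSC). The EpiSC groups were heterozygous for an Xist deletion (dXist, 2 libraries) or wild type (2 libraries), and were grown on matrigel with FGF2 and Activin. The XEN groups were deleted for Xist on the paternal X and treated with 20 uM 5-aza-2'-deoxycytidine (Aza, 2 libraries), wild type and treated (2 libraries), deleted for paternal Xist and untreated (3 libraries), or wild type and untreated (2 libraries), all in a serum medium. The study asked what loss of Xist does to X-linked genes in the 2 cell types, and Aza was added in XEN cells. Treatment time, the extent of the Xist deletion and the origin of the replicate libraries (separate clones or cultures) are not stated in the labels. The p-values therefore describe spread among libraries, part of which may be technical.

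In female mammals Xist RNA coats an X chromosome and silences most of its genes, so that females and males make similar amounts of X-linked products. In the extraembryonic lineages of the mouse, XEN cells among them, the silenced X is always the paternal X, whereas in epiblast cells the choice is random. Escape genes are transcribed from the silenced X as well as from the active X, although usually less from the silenced X. Several of them keep a partner gene on the Y chromosome, as Kdm6a does with Uty, Kdm5c with Kdm5d, Eif2s3x with Eif2s3y and Ddx3x with Ddx3y. Aza blocks DNA methylation, a mark that helps keep silenced genes off. The counts here are summed over both X chromosomes, so no value separates the parental alleles.

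The libraries were first checked against their labels. Xist was at 0.435 and 0.276 CPM (the usual rate of read counts per library, here with TMM scaling) in dXist EpiSC libraries 1 and 2, against 816 and 206 CPM in wild-type EpiSC. In dXist XEN, libraries 1 to 3 held 2.28, 1.16 and 4.79 CPM, against 1551 and 1587 CPM in wild-type XEN. The libraries labelled treated dXist XEN held 14.6 and 242 CPM, against 1627 and 1215 CPM in treated wild-type XEN, so the library labelled treated dXist XEN 2 carried more Xist RNA than the other dXist libraries. The 9 XEN markers summed to 155.8 to 278.7 CPM in EpiSC, and in XEN to between 1.73e+04 and 6.11e+04 CPM. The 8 epiblast markers summed to 713 to 1226 CPM in EpiSC, and in XEN to between 29.6 and 207.9 CPM, where 1 of them, Dnmt3b, made up most of the sum and Sox2 and Fgf5 were at or near 0. The Y-linked partners Uty, Kdm5d, Eif2s3y and Ddx3y together had at most 1 count in an EpiSC library and at most 13 counts in an XEN library.

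The libraries fell into 2 types by their content. Transcripts without poly(A) tails (mitochondrial rRNA and Rn7sk) made up 10.4% to 13.5% of the reads of 4 libraries, named total-like here: library 2 of each EpiSC genotype and the pair of treated wild-type XEN. Their share was 0.0152% to 0.279% in the other 9, named polyA-like. In EpiSC each genotype had 1 library of each type. In XEN the treated wild type was total-like and every other library polyA-like, so Aza and library type in the wild type cannot be told apart. Total counts ran from 5848454, in treated wild-type XEN library 1, to 35247432. The treated wild-type XEN libraries differed by 3.89 times counting error (chi-square per degree of freedom), against 75.5 to 524 times for the other pairs within a group, so their spread may be technical.

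Chromosomal positions and promoters are given first because several of the genes are neighbours. Ddx3x (chrX:13280970-13294052, plus strand) and Kdm6a (chrX:18162575-18279936, plus strand) lie toward the centromere. Utp14a (chrX:48256862-48282453, plus strand) and Eif2s3x (chrX:94188707-94212862, minus strand) follow. The noncoding 5530601H04Rik (chrX:105037197-105079609, minus strand) and Pbdc1 (chrX:105079756-105117090, plus strand) are transcribed away from each other, with 146 bases between their starts, and lie 1.59 and 1.63 Mb from Xist. Kdm5c (chrX:152233020-152274535, plus strand) and Kantr (chrX:152294828-152327495, minus strand) run toward each other, 20.3 kb apart. Car5b (chrX:163976822-164027997, minus strand) is the most distal. Positions are GENCODE vM21 genes on GRCm38, where Kantr is listed as protein coding, while RefSeq lists it as a long noncoding RNA. Utp14a overlaps the noncoding 9530027J09Rik on the other strand, and the strand used in counting is not stated, so reads in that overlap cannot be assigned with certainty.

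The upstream windows below come from RefSeq (GRCm38.p6), each read 5' to 3' on the strand of the gene: the window that Pbdc1 and 5530601H04Rik share, and those of Kantr and Car5b, the pair that stood farthest from the wild type in dXist XEN cells. In the shared window the capitals mark the 146 bases between both starts, which hold 13 CG dinucleotides. In the other windows the capitals mark each CG.
Pbdc1 and 5530601H04Rik shared window, chrX:105079506-105079755, plus strand: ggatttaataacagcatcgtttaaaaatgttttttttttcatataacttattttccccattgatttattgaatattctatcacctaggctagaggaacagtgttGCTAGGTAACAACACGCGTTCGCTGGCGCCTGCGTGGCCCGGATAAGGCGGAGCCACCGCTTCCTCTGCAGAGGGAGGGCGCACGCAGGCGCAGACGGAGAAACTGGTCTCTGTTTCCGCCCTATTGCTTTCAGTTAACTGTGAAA
Kantr upstream window, chrX:152327494-152327743, minus strand: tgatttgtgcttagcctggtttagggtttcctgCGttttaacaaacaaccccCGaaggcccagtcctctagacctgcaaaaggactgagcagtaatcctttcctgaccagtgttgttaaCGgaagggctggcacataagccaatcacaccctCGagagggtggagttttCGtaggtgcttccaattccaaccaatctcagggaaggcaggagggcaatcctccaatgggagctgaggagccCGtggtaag
Car5b upstream window, chrX:164028011-164028260, minus strand: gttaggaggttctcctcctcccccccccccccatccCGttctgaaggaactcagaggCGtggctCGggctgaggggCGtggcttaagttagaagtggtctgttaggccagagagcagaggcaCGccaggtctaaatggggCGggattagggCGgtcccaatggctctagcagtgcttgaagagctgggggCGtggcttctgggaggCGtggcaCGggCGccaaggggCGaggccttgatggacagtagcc

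All 9 genes had a RefSeq promoter window, from 250 bases before to 50 bases after the start. These windows held a median of 20 CG dinucleotides with a CpG observed over expected ratio of 0.796, against medians of 7 and 0.384 over all 32851 windows of the genome. The counts were 25 in Ddx3x, 21 each in Kdm6a, Utp14a and Eif2s3x, 20 in Pbdc1, 13 in Kdm5c, 12 in Car5b, 11 in 5530601H04Rik and 9 in Kantr. Car5b and Kantr had the lowest observed over expected ratios of the 9, 0.438 and 0.425. The window RefSeq gives for 5530601H04Rik (chrX:105070075-105070374) lies inside the gene model used for counting, downstream of the start it shares with Pbdc1. Searched on both strands, the YY1 core ATGGCGG occurred in Kdm5c alone among the 9 (4.05% of all windows). The CTCF core was searched as AGGGGGC and as its variants AGGTGGC, then also as AGATGGC and lastly as AGAGGGC. It occurred in Ddx3x, Eif2s3x and Kdm5c (27.6% of all windows), overlapping the YY1 core in Kdm5c. The TATA box letters TATAAA occurred in 5530601H04Rik (13.6% of all windows).

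The escape genes covered a wide range of levels. Per kilobase of exon, the RNA helicase gene Ddx3x led in all 6 groups, at 152 ± 26.9 CPM per kb in wild-type XEN (SD, n = 2), followed in all 6 by Eif2s3x, the gamma subunit of the translation initiation factor eIF2, at 56.0 ± 7.31 CPM per kb in wild-type XEN. In wild-type XEN the histone demethylase Kdm5c was at 30.8 ± 2.89 CPM per kb and Utp14a, a part of the machinery that assembles the small ribosomal subunit, at 14.6 ± 2.55. Pbdc1 followed at 6.25 ± 0.0730 and the histone demethylase Kdm6a at 4.96 ± 0.590 CPM per kb. Kantr and the noncoding 5530601H04Rik were at 1.42 ± 0.209 and 0.848 ± 0.333 CPM per kb, and the mitochondrial carbonic anhydrase Car5b was lowest at 0.394 ± 0.0174. Car5b was the lowest of the 9 in every group. It rests on few reads: 15, 13 and 32 counts in dXist XEN, against 77 and 76 in wild-type XEN.

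**Figure D1:**
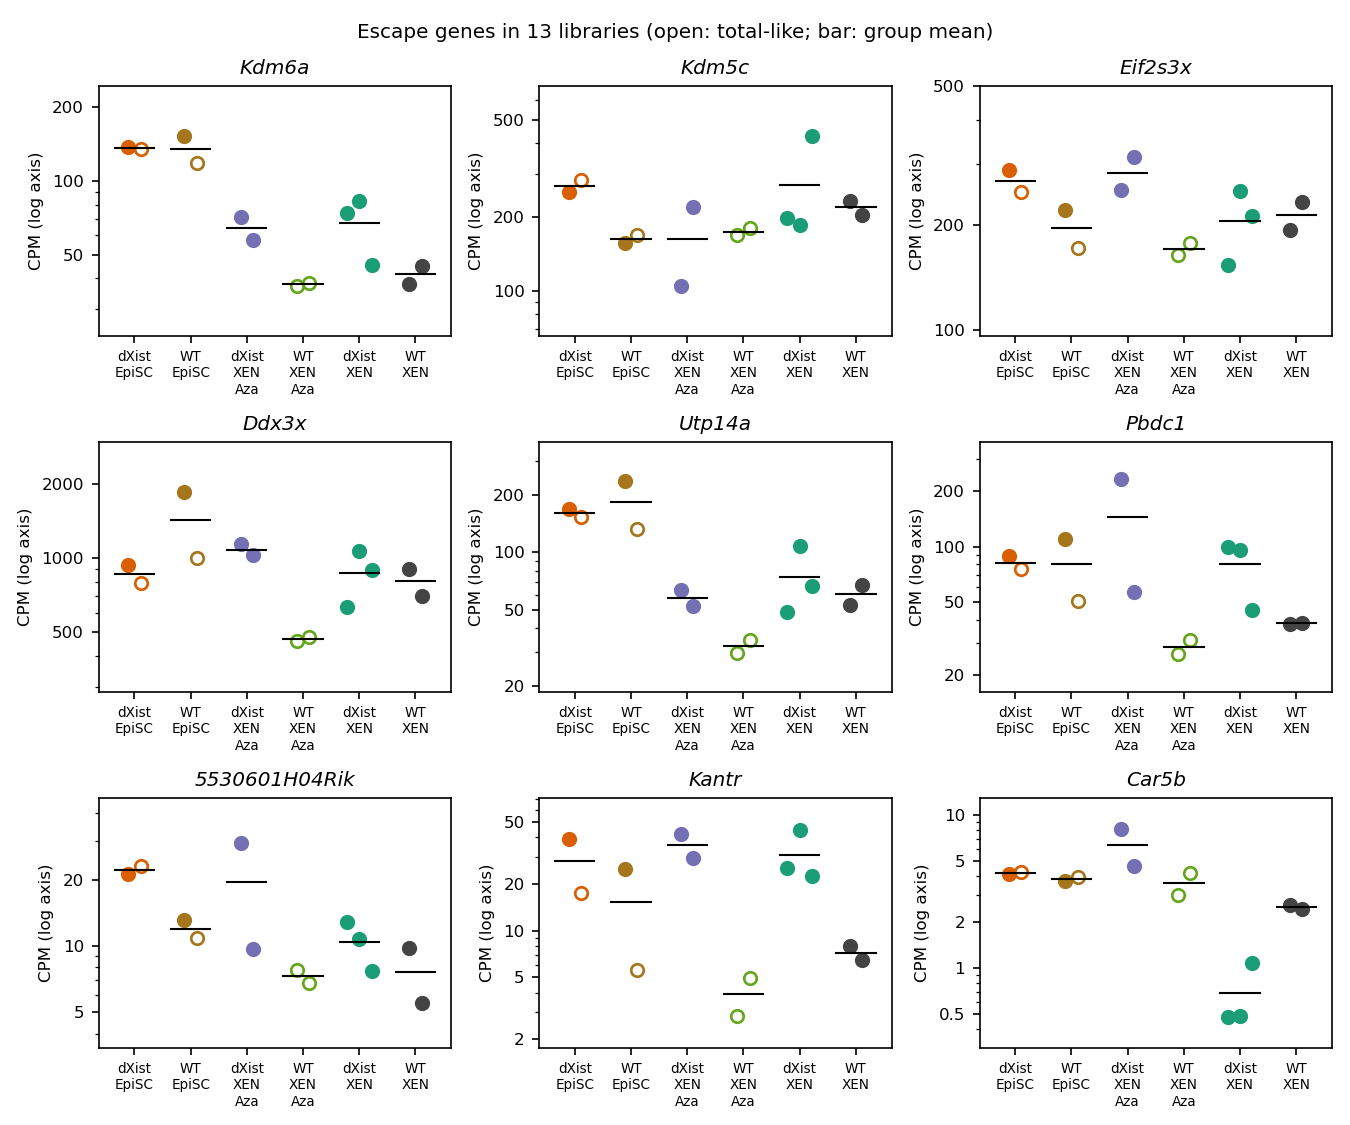
Level of each escape gene in every library, in CPM on a log axis, by group (open symbols: total-like libraries, filled symbols: polyA-like libraries, bar: group mean). Kantr lies at 22.4 to 44.7 CPM in dXist XEN and at 6.47 to 7.98 CPM in the wild type, and Car5b lies lowest in dXist XEN.

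In XEN cells without paternal Xist, Kantr stood above and Car5b below the wild type in every library, and the housekeeping members Ddx3x, Eif2s3x and Utp14a overlapped it. None of the 9 was called by edgeR's quasi-likelihood test at an adjusted p under 0.05, where 0.0217% of 18393 genes were called. At an unadjusted p under 0.05 there were 2 of 9, Kantr and Car5b, where 10.7% of all genes passed. In 3 members (Kdm6a, Pbdc1 and Kantr) every dXist library exceeded both wild-type libraries, which held for 13.6% of all genes, and in 1 (Car5b) every dXist library was lower, as for 14.8% of all genes. The median log2 fold change of the 9 was 0.31, between 0.36 for the 629 X-linked genes tested and 0.00 for autosomal genes. The X-linked median was 0.15 without dXist library 3 and 0.57 without wild-type library 1, where the 9 had 0.36 and 0.39. Without dXist library 1 the 9 had 0.51 and X-linked genes 0.33.

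Kantr, a transcript named for its place beside Kdm5c, was at 25.3, 44.7 and 22.4 CPM in dXist libraries 1 to 3, against 7.98 and 6.47 CPM in wild-type XEN. All 3 dXist libraries lay at 3.10 to 6.19 times the wild-type mean. Its log2 fold change was 2.09 (SE 0.46, adjusted p = 0.248), 88th of 629 X-linked genes by fold. Its call depended on the setting: the adjusted p ran from 0.00165 to 0.720 over the alternatives, it was called by DESeq2 (adjusted p = 0.00165), which called 3.08% of all genes and no other member, by edgeR without a filter (0.0114, with 1.92% of all genes called) and by edgeR without dXist library 3 (0.0420, with 2.87% called). The noncoding 5530601H04Rik was at 12.9, 10.7 and 7.67 CPM in dXist XEN, against 9.75 and 5.52 CPM in wild-type XEN, and its groups overlapped.

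Its divergent partner Pbdc1, a small conserved protein-coding gene, was at 99.7, 96.2 and 45.3 CPM in dXist XEN, against 37.8 and 38.4 CPM in wild-type XEN. The first pair of dXist libraries was far above the wild type and library 3 was 1.19 times its mean (log2 fold change 1.06, SE 0.55, adjusted p = 0.521). Kdm6a, which removes a repressive methyl mark from histone H3, was at 74.1, 82.7 and 45.3 CPM in dXist XEN, against 38.0 and 45.04 CPM in wild-type XEN. Here too dXist libraries 1 and 2 stood apart and library 3 lay beside the wild type (log2 fold change 0.69, SE 0.33, adjusted p = 0.493).

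Car5b was at 0.481, 0.486 and 1.09 CPM in dXist XEN, against 2.58 and 2.42 CPM in wild-type XEN. All 3 dXist libraries lay at 0.192 to 0.434 times the wild-type mean, and the log2 fold change was -1.86 (SE 0.63, adjusted p = 0.391). The gene ranked 614th of 629 X-linked genes by fold. Over the alternatives its adjusted p ran from 0.0690 to 0.821, so no setting called it.

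The remaining members overlapped between dXist and wild-type XEN. Ddx3x was at 632, 1065 and 896 CPM in dXist XEN, against 902 and 701 CPM in wild-type XEN (log2 fold change 0.11, SE 0.34). Eif2s3x was at 153.9, 249.8 and 213 CPM in dXist XEN, against 194 and 233 CPM in wild-type XEN (log2 fold change -0.06, SE 0.33). Utp14a was at 48.4, 107 and 66.1 CPM in dXist XEN, against 52.7 and 67.6 CPM in wild-type XEN (log2 fold change 0.29, SE 0.37). In each of these genes dXist library 2 was the highest and library 1 the lowest of the 3.

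Kdm5c, which removes an activating methyl mark from histone H3, was at 198, 186 and 429 CPM in dXist libraries 1 to 3, against 234 and 204.5 CPM in wild-type XEN. Library 3 stood at 1.96 times the wild-type mean, whereas libraries 1 and 2 were at 0.906 and 0.850 times it. The group log2 fold change was 0.31 (SE 0.47, adjusted p = 0.846), and -0.21 without library 3. Several genes on the centromeric side of Kdm5c also had library 3 above libraries 1 and 2. The nearest gene on that side, Iqsec2, did not, at 2.15, 1.97 and 1.90 times the wild-type mean in libraries 1 to 3. Huwe1, a ubiquitin ligase, was at 0.606, 0.633 and 2.66 times the wild-type mean in libraries 1 to 3, the histone demethylase Phf8 at 1.05, 1.14 and 2.01 times, and the mitochondrial enzyme gene Hsd17b10 at 1.01, 0.641 and 2.14 times. Smc1a, a cohesin subunit and itself known as an escape gene in humans, was at 0.537, 0.602 and 1.55 times. On the other side of Kdm5c, library 3 was the lowest of the 3 for Kantr, Tspyl2 (1.98, 2.32 and 1.34 times) and Gpr173 (1.76, 1.92 and 1.10 times). These protein-coding genes, within 1 Mb of Kdm5c and with a mean of at least 3 CPM over the 13 libraries, were chosen after the Kdm5c values were seen and carry no test.

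**Figure D2:**
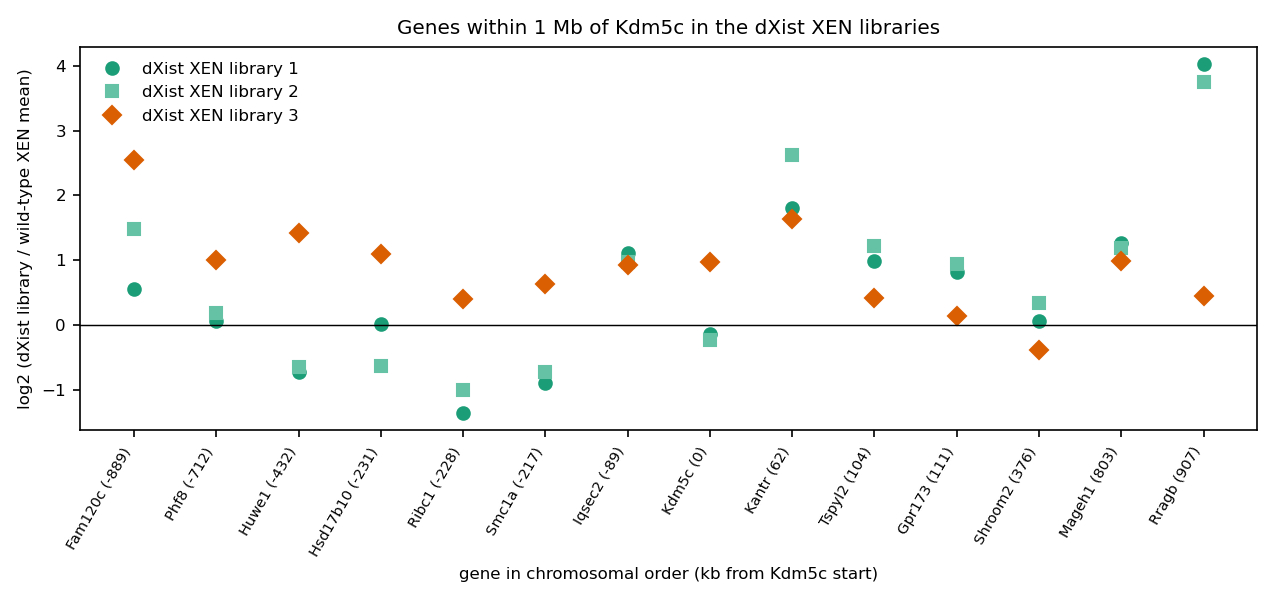
Log2 ratio of each dXist XEN library to the wild-type XEN mean for 14 genes within 1 Mb of Kdm5c, in chromosomal order with the distance between left ends in kb. Library 3 lies above libraries 1 and 2 from Fam120c to Smc1a and at Kdm5c, and below them from Kantr to Rragb.

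The dXist XEN libraries differed among themselves over all genes as well. Libraries 1 and 2 correlated at 0.990 across genes, library 3 correlated with them at 0.956 and 0.951, and with the wild-type libraries at 0.972 and 0.968. The epiblast list summed to 30.4, 29.6 and 168.5 CPM in dXist libraries 1 to 3, against 166.5 and 207.9 CPM in wild-type XEN, almost all of it Dnmt3b. Fibroblast markers summed to 3.37, 2.24 and 3.63 CPM in dXist, against 18.1 and 16.5 CPM in wild-type XEN, nearly all of it Pdgfrb in the wild type. The part of these differences in the escape gene values was not tested.

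Set beside their own neighbours, 2 escape genes had a log2 fold change outside the range of those neighbours in dXist XEN cells. How often other X-linked genes lie outside the range of theirs was not counted. The neighbours of each gene were the 3 nearest tested protein-coding genes on each side, with the 9 members themselves left out. These 41 distinct genes had a median log2 fold change of 0.32, and none was called. The log2 fold change of Kantr exceeded those of all 6 of its neighbours (median 0.34, highest 1.001), and that of Car5b was below all 6 of its own (median 0.03, lowest -0.83). Kdm6a and Pbdc1 exceeded 4 of 6 each. Of 9 other escape genes tested 0 were called, with a median log2 fold change of 0.04. Jpx, a noncoding RNA of the X-inactivation centre, had a log2 fold change of 1.27 (SE 0.75), which rests on dXist library 1: the levels were 26.9, 5.98 and 5.84 CPM in dXist libraries 1 to 3, against 4.46 and 6.03 CPM in wild-type XEN. The proteoglycan gene Bgn had one of -1.70 (SE 0.88). Of 16 genes listed as silenced on the inactive X, 0 were called, and their median was 0.39, slightly above the 0.31 of the escape genes. Lamp2, a lysosomal membrane protein in that list, had a log2 fold change of 1.75 (SE 0.52) and the glycolytic enzyme Pgk1 one of -0.99 (SE 0.38). Of 10 autosomal relatives and partners tested 0 were called (median 0.14).

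**Figure D3:**
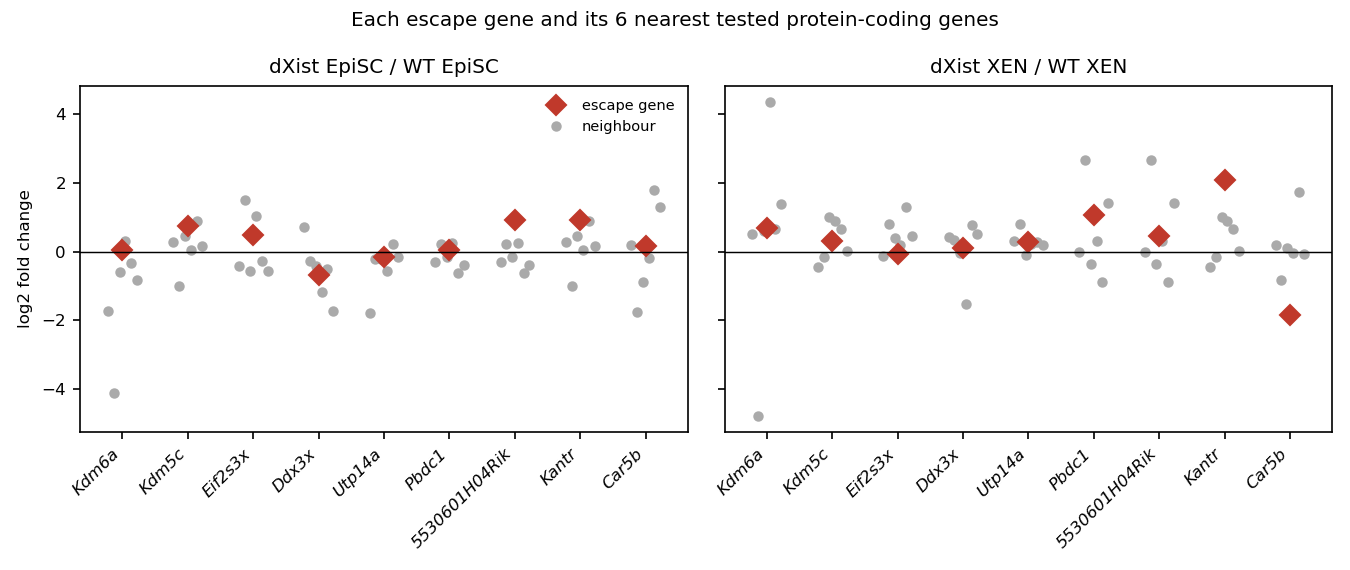
Log2 fold change of each escape gene (red diamonds) and of its 6 nearest tested protein-coding genes, the escape genes themselves left out (grey points), dXist against wild type, in EpiSC (left) and XEN (right). In EpiSC 5530601H04Rik and Kantr lie above all 6 neighbours, and in XEN Kantr lies above and Car5b below all 6.

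In EpiSC heterozygous for the Xist deletion, 5530601H04Rik, Kdm5c and Eif2s3x were higher in both dXist libraries than in both wild-type libraries, and Ddx3x was lower. Without a term for library type, DESeq2 called 0 of 9 members, against 3.05% of all genes. In edgeR without that term 0 members were called, as were 0.0% of 17132 genes. At an unadjusted p under 0.05 there were 2 of 9 (5530601H04Rik and Kdm5c), against 10.2% of all genes. The groups did not overlap in 4 members that were higher in dXist, the fourth being Car5b, against 20.5% of all genes, and in 1 that was lower, against 22.3%. The median log2 fold change of the 9 was 0.16, against -0.18 for 560 X-linked genes and 0.00 for autosomal genes. Without wild-type library 1 these medians were 0.66 for the 9 and 0.05 for X-linked genes, and without wild-type library 2 they were 0.21 and -0.33. The X-linked median was -0.30 without dXist library 1.

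Each EpiSC genotype had 1 polyA-like and 1 total-like library, so the genotypes were also compared within each type. Kantr was at 38.9 CPM in the polyA-like and 17.5 CPM in the total-like dXist library, against 25.1 and 5.57 CPM in the wild-type libraries of the same types. Within each type dXist was higher, by 0.63 and 1.65 on the log2 scale, although the genotypes overlapped when the types were pooled. Library type was added as a term in a fit of the EpiSC libraries alone, where it is the same as the replicate number. In that fit the log2 fold change of Kantr was 1.14 (SE 0.33, adjusted p = 0.00764). It called 11.4% of all genes, and 4.91% as higher. Without that term the log2 fold change of Kantr was 0.91 (SE 0.78, adjusted p = 0.736). A fit of all 13 libraries with type as a term called 0.00959% of all genes in this comparison. It called 0 as higher, so the Kantr call depended on the fit.

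5530601H04Rik was at 21.3 and 23.1 CPM in dXist EpiSC, against 13.04 and 10.85 CPM in wild-type EpiSC. The log2 difference was 0.70 within the polyA-like and 1.09 within the total-like pair. The fit of EpiSC alone with library type gave 0.92 (SE 0.33, adjusted p = 0.0499). The fit of all 13 libraries did not call 5530601H04Rik as higher. Kdm5c was at 253 and 283 CPM in dXist EpiSC, against 156 and 168.5 CPM in wild-type EpiSC. Its log2 difference was 0.69 and 0.75 within the pairs. The fit of EpiSC alone with library type gave 0.74 (SE 0.33, adjusted p = 0.137). Eif2s3x was at 287.5 and 248 CPM in dXist EpiSC, against 221 and 171 CPM in wild-type EpiSC, with log2 differences of 0.38 and 0.54.

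Ddx3x was at 938 and 789 CPM in dXist EpiSC, against 1841 and 1002 CPM in wild-type EpiSC (log2 differences -0.97 and -0.34). Its groups did not overlap, but wild-type library 1 was far above the others. Kdm6a was at 137.5 and 134.6 CPM in dXist EpiSC, against 152 and 118 CPM in wild-type EpiSC, the smallest group difference of the 9 (log2 fold change 0.04, SE 0.28). For Kdm6a, Pbdc1 and Utp14a the polyA-like pair was lower in dXist and the total-like pair higher: the log2 differences were -0.31 and 0.57 for Pbdc1 and -0.48 and 0.21 for Utp14a. Car5b was at 4.13 and 4.24 CPM in dXist EpiSC, against 3.70 and 3.92 CPM in wild-type EpiSC (log2 differences 0.16 and 0.11).

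Fibroblast markers were lower in dXist than in wild-type EpiSC, with 0 of 8 called. All 8 had a negative log2 fold change (median -2.27), and their summed level was 226.6 and 164.1 CPM in dXist, against 794.6 and 675.2 CPM in wild type, with Lum at 0 in both dXist libraries. Epiblast markers summed to 1226 and 872.5 CPM in dXist, against 748.3 and 712.8 CPM in wild type, mostly through Pou5f1 (601.5 and 416.4 CPM in dXist, against 206 and 258.6 CPM in wild type). Their median log2 fold change was 0.07, with 4 of 8 positive and 0 called. In bulk RNA fewer cells of a type and less RNA per cell cannot be told apart, and the part of either list in the escape gene values was not tested. The 41 neighbours of the escape genes had a median log2 fold change of -0.26 in EpiSC. Kantr and 5530601H04Rik exceeded all 6 of their neighbours (medians 0.22 and -0.22), and Kdm5c exceeded 5 of 6. How often other X-linked genes do so was not counted. Kantr, left out as a neighbour of Kdm5c, lay above it (0.91 against 0.75). Among the other escape genes 0 of 9 were called in the fit without library type, with a median log2 fold change of 0.29. That of Jpx was 1.49 (SE 0.29) and that of Bgn -2.36 (SE 0.57) in that fit, with adjusted p of 0.232 and 0.300.

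The genotype difference itself was compared between cell types in a fit of the 9 untreated libraries. Of the 9 members 0 were called by DESeq2, against 2.57% of all genes, and 0 by edgeR, against 0.0101% of 19733 genes. The largest value was that of Car5b (EpiSC minus XEN 2.03, SE 0.83, unadjusted p = 0.0362, adjusted p = 0.449), the 1 member at an unadjusted p under 0.05, where 10.3% of all genes passed. Kantr had -1.18 (SE 0.92) and Pbdc1 -1.01 (SE 0.61). The genotype comparisons in XEN and EpiSC share no libraries.

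**Figure D4:**
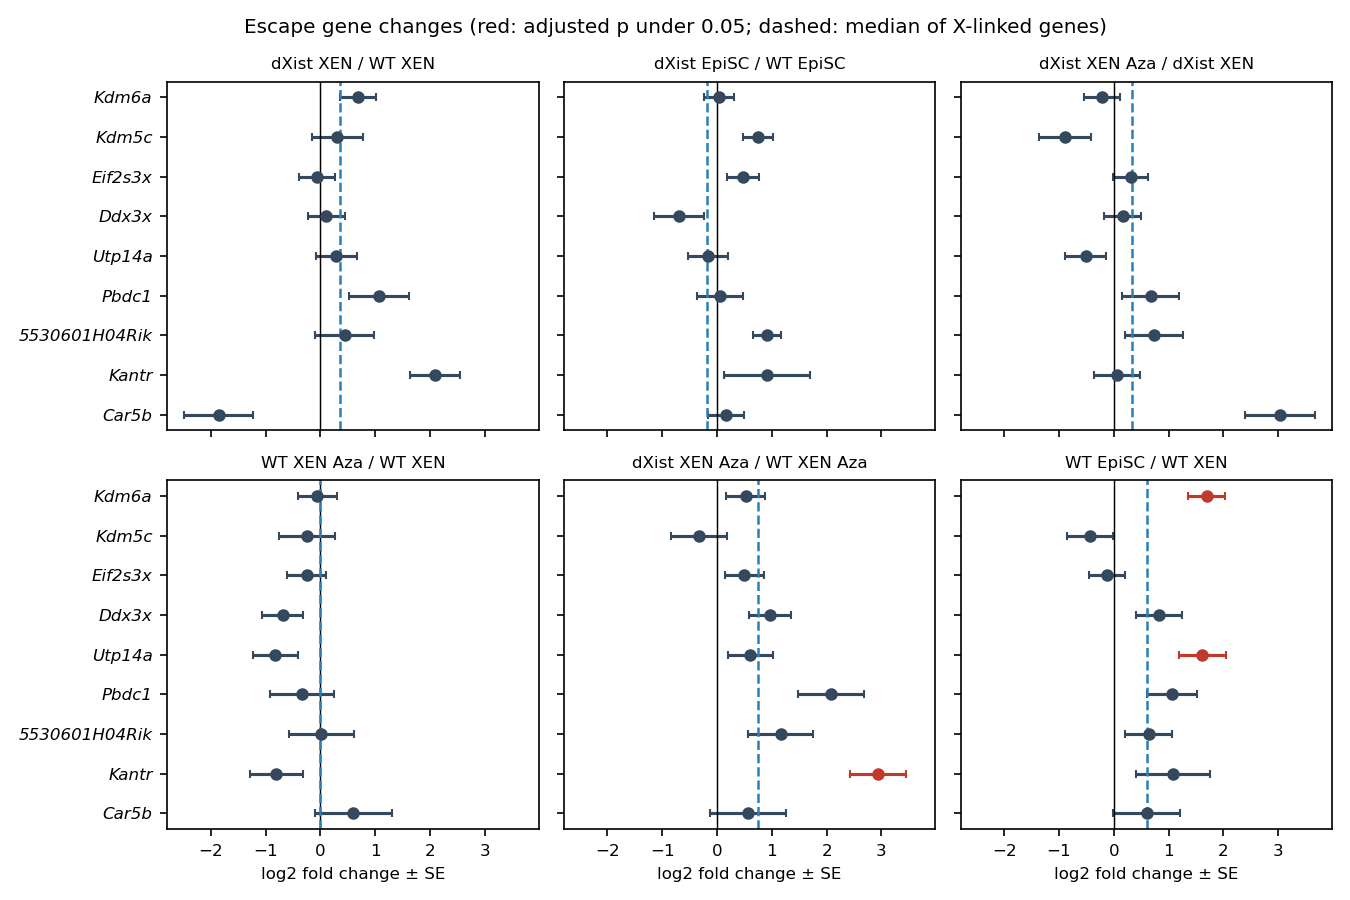
Log2 fold change with its standard error for the 9 escape genes in 6 comparisons (red: adjusted p under 0.05; dashed line: median of X-linked genes). Kantr is called in treated dXist against treated wild-type XEN, and Kdm6a and Utp14a in wild-type EpiSC against wild-type XEN.

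Between treated and untreated dXist XEN cells no escape gene was called by edgeR, and Car5b had the largest fold change of the 9. Car5b was at 8.10 and 4.62 CPM in the libraries labelled treated dXist XEN 1 and 2, against 0.481, 0.486 and 1.09 CPM in untreated dXist XEN. The treated libraries were above every untreated library, and above the 2.58 and 2.42 CPM of untreated wild-type XEN too. The log2 fold change was 3.04 (SE 0.64, edgeR adjusted p = 0.0641), 56th of 629 X-linked genes. The adjusted p ran from 3.8e-05, with DESeq2, to 0.205 over the alternatives. Leaving out a library gave log2 fold changes of 2.61 to 3.56 for Car5b. Its adjusted p was 0.0443 without dXist library 3, in a fit that called 2.33% of all genes. It was 0.0230 when the 13 libraries were fitted together with a term for library type, where 6.68% of all genes were called. All treated and untreated dXist XEN libraries were polyA-like, so that term does not adjust this comparison.

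Of the 9 members 0 were called in that comparison by edgeR, against 0.0761% of all genes, and 1, Car5b, by DESeq2, against 15.9%. At an unadjusted p under 0.05 there was 1 of 9, against 26.8% of all genes. In 2 members, Car5b and Eif2s3x, every treated library exceeded every untreated library, against 23.9% of all genes, and in 0 every treated library was lower, against 18.3%. The median log2 fold change of the 9 was 0.17, against 0.33 for X-linked genes. These were -0.23 and 0.07 without treated library 1, -0.03 and 0.32 without dXist library 1, 0.43 and 0.28 without dXist library 2, and 0.21 and 0.52 without dXist library 3. Neither share stood above that of all genes. Eif2s3x was at 251.8 and 313.5 CPM in treated dXist XEN, against 153.9 to 249.8 CPM untreated (log2 fold change 0.31, SE 0.32, adjusted p = 0.556).

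The divergent pair was split by library. Pbdc1 was at 231.7 and 56.5 CPM in the libraries labelled treated dXist XEN 1 and 2, against 45.3 to 99.7 CPM in untreated dXist XEN. 5530601H04Rik followed with 29.3 and 9.72 CPM, against 7.67 to 12.9 CPM. In both genes treated library 1 was the highest of all 13 libraries and treated library 2 lay within the untreated range. Pbdc1 had a log2 fold change of 0.67 (SE 0.52), 1.31 without the library labelled treated dXist XEN 2 (adjusted p = 0.0443, in a fit that called 23.9% of all genes) and -0.64 without library 1. Treated dXist library 1 correlated with the other XEN libraries at only 0.890 to 0.932 across genes, and its XEN markers summed to 1.73e+04 CPM, against 4.25e+04 CPM in treated library 2. The part of this in the values of Pbdc1 was not tested.

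Kdm5c was at 104.8 and 219.5 CPM in treated dXist XEN, against 186 to 429 CPM untreated (log2 fold change -0.88, SE 0.48, adjusted p = 0.256). Kantr was at 42.2 and 29.2 CPM in treated dXist XEN, against 22.4 to 44.7 CPM untreated. Kdm6a was at 71.0 and 57.4 CPM, against 45.3 to 82.7 CPM untreated. Ddx3x was at 1136 and 1024 CPM, against 632 to 1065 CPM untreated, and Utp14a at 63.3 and 52.4 CPM, against 48.4 to 107 CPM untreated. These 5 genes overlapped between treated and untreated libraries.

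In wild-type XEN the treated libraries were also the total-like libraries. None of the 9 genes was called by edgeR, against 0.582% of 18393 genes, or by DESeq2, against 3.6% of all genes. In edgeR 0 passed an unadjusted p under 0.05, against 12.4% of all genes. In 6 members both treated libraries lay below both untreated libraries, against 31.7% of all genes, and in 1 (Car5b) above, against 28.1%. Ddx3x was at 459 and 479 CPM in treated wild-type XEN, against 902 and 701 CPM untreated (log2 fold change -0.69, SE 0.38). Utp14a was at 29.8 and 34.7 CPM, against 52.7 and 67.6 CPM untreated (log2 fold change -0.82, SE 0.41). Kantr was at 2.83 and 4.95 CPM, against 7.98 and 6.47 CPM untreated (log2 fold change -0.80, SE 0.49).

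The Kantr level was also compared between library types, a comparison that did not pass the test. In a fit of all 13 libraries with type as a term, total-like libraries were lower for Kantr by -1.66 on the log2 scale (SE 0.49, unadjusted p = 0.00579, adjusted p = 0.319), the farthest from 0 of the 9 genes. In that fit the treated against untreated wild-type difference of Kantr was 0.78, of the other sign. The next values were -0.68 for Pbdc1 and -0.56 for Ddx3x, and Car5b was at 0.06 (SE 0.64).

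Between treated dXist and treated wild-type XEN, Kantr was the 1 escape gene called. It was at 42.2 and 29.2 CPM in the libraries labelled treated dXist XEN, against 2.83 and 4.95 CPM in treated wild-type XEN, 7.70-fold higher (log2 fold change 2.94, SE 0.51, adjusted p = 0.0358), where 0.647% of all genes were called and 0.0598% as higher. The groups differ in library type as well as genotype, and with type as a term the log2 fold change was 1.52 (adjusted p = 1). That term was estimated from the EpiSC libraries and carried over to XEN. Over the alternatives the adjusted p ran from 4.4e-06 to 1, with 0.552 and 0.273 without treated wild-type library 1 or 2, 0.108 without treated dXist library 1, and 0.00766 without the library labelled treated dXist XEN 2, where 16.7% of all genes were called. At an unadjusted p under 0.05 there were 3 of 9 (Kantr, Pbdc1 and Ddx3x), against 16.7% of all genes. Pbdc1 was at 231.7 and 56.5 CPM in treated dXist, against 25.9 and 31.0 CPM in treated wild-type XEN (log2 fold change 2.08, SE 0.61, adjusted p = 0.181), and was called by DESeq2 (0.0183), which called 7.73% of all genes, and without the library labelled treated dXist XEN 2 (0.00659, in a fit that called 16.7% of all genes). Its adjusted p ran from 0.00140 to 1 over the alternatives. In 8 of 9 members both treated dXist libraries exceeded both treated wild-type libraries, against 29.6% of all genes, in 0 both were lower, against 25.8%, and Kdm5c overlapped. The median log2 fold change of the 9 was 0.60, against 0.75 for X-linked genes and -0.10 for all genes. This comparison shares its libraries with both treatment comparisons. The difference between the treatment effects, dXist minus wild type, was called in 0 of 9 members by DESeq2, against 1.46% of all genes. By edgeR it was also called in 0, against 0.245%. At an unadjusted p under 0.05 there was 1, Car5b (2.43, SE 0.94, adjusted p = 0.600), against 8.0% of all genes.

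Among the wild types, Kdm6a and Utp14a were higher in EpiSC than in XEN cells. Kdm6a was at 152 and 118 CPM in wild-type EpiSC, against 38.0 and 45.04 CPM in wild-type XEN, 3.24-fold higher (log2 fold change 1.70, SE 0.34, adjusted p = 0.00606). Utp14a was at 236 and 132.5 CPM in wild-type EpiSC, against 52.7 and 67.6 CPM in wild-type XEN, 3.06-fold higher (log2 fold change 1.61, SE 0.43, adjusted p = 0.0201). Kdm6a was called in every alternative run, with an adjusted p of at most 0.0455. Utp14a was not called without wild-type EpiSC library 1 (adjusted p = 0.114), wild-type XEN library 1 (0.117) or wild-type XEN library 2 (0.0585). Without the total-like EpiSC library 2, the log2 fold changes were 1.89 for Kdm6a and 1.98 for Utp14a.

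The 2 of 9 called compare with 30.8% of 19733 genes called, and 16.8% called as higher. At an unadjusted p under 0.05 there were 3 (Pbdc1 as well), against 44.6%. Pbdc1 was at 109 and 50.4 CPM in wild-type EpiSC, against 37.8 and 38.4 CPM in wild-type XEN (log2 fold change 1.06, SE 0.45, adjusted p = 0.0999). Ddx3x was at 1841 and 1002 CPM, against 902 and 701 CPM (log2 fold change 0.82, SE 0.42). Kdm5c was at 156 and 168.5 CPM in wild-type EpiSC, against 234 and 204.5 CPM in wild-type XEN (log2 fold change -0.43, SE 0.42), the 1 member whose EpiSC libraries both lay below both XEN libraries, against 30.0% of all genes. In 6 members both EpiSC libraries were higher, against 36.3%. Kantr overlapped, at 25.1 and 5.57 CPM in wild-type EpiSC, against 7.98 and 6.47 CPM in wild-type XEN.

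The median log2 fold change of the 9 was 0.82, against 0.61 for 660 X-linked genes and 0.13 for all genes. Without wild-type EpiSC library 1 the medians were 0.45 for the 9 and 0.32 for X-linked genes. Of the 41 neighbours 13 were higher and 1 was lower in EpiSC. Among the other escape genes 2 of 9 were higher, the deubiquitinase Usp9x (log2 fold change 1.34, SE 0.33) and the noncoding Firre (3.39, SE 0.85). Of 16 genes listed as silenced, 3 were higher: Atp7a, Rbmx and Cul4b. Among 10 autosomal relatives and partners tested, Utp14b, a relative of Utp14a, and Kdm5b, a relative of Kdm5c, were higher (log2 fold changes 1.47, SE 0.34, and 1.34, SE 0.30). The histone methyltransferases Kmt2c and Kmt2d, whose complexes contain the Kdm6a protein, were lower (log2 fold changes -1.71, SE 0.40, and -1.11, SE 0.36).

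The groups can also be put in order for each gene. Kdm6a was highest in dXist and wild-type EpiSC, at 136 ± 2.08 and 135 ± 24.3 CPM (SD, n = 2 each), which overlapped with each other and with no XEN group. Treated and untreated dXist XEN followed at 64.2 ± 9.60 CPM (n = 2) and 67.4 ± 19.6 CPM (n = 3) and overlapped. Treated and untreated wild-type XEN were lowest at 37.8 ± 0.574 and 41.5 ± 4.95 CPM (n = 2 each), again overlapping. Kantr was highest in treated and untreated dXist XEN, at 35.7 ± 9.14 and 30.8 ± 12.2 CPM, then in dXist EpiSC at 28.2 ± 15.2 CPM, with overlap between neighbours in that order. Wild-type EpiSC, at 15.3 ± 13.8 CPM, overlapped with untreated wild-type XEN, at 7.22 ± 1.06 CPM, and treated wild-type XEN was lowest at 3.89 ± 1.503 CPM. Car5b ran from 6.36 ± 2.46 CPM in treated dXist XEN through 4.18 ± 0.0751 CPM in dXist EpiSC and 3.81 ± 0.158 CPM in wild-type EpiSC to 0.685 ± 0.348 CPM in untreated dXist XEN, and treated wild-type XEN and wild-type EpiSC were its 1 pair of overlapping neighbours. For 5530601H04Rik every pair of neighbouring groups overlapped, from 22.2 ± 1.29 CPM in dXist EpiSC to 7.29 ± 0.729 CPM in treated wild-type XEN. For Ddx3x only treated wild-type XEN, the lowest at 469 ± 14.0 CPM, did not overlap with the group next to it, untreated wild-type XEN at 802 ± 142 CPM.

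Patterns across the 13 libraries are given as Pearson correlations of log2(CPM + 1), which share depth, library type and cell type and carry no test. Among the members themselves the closest were Kdm6a and Utp14a (0.910), Pbdc1 and Kantr (0.832) and the divergent Pbdc1 and 5530601H04Rik (0.813). The convergent neighbours Kdm5c and Kantr were near 0 (0.05), and the Y-paired Kdm6a and Kdm5c at -0.09. Among 14262 genes the pattern most like Kantr was that of Tspyl2 (0.926), whose start is 14.9 kb from that of Kantr. The most like were Sept6 for Kdm6a (0.978), Pin4 for 5530601H04Rik (0.967), Tcea1 for Pbdc1 (0.966), Xpo4 for Utp14a (0.955), Sgo2a for Car5b (0.951), Miga1 for Ddx3x (0.950), Pced1a for Kdm5c (0.923) and Spg11 for Eif2s3x (0.864). Sept6, Pin4 and Tspyl2 are X-linked and the other 6 autosomal.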

How the data were processed

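Per the labels' protocols, total RNA was taken with Trizol and libraries were made with NEBNext Ultra or TruSeq stranded kits (the kit of each library is not stated). The deposited table holds whole-number counts of reads per gene, not normalised, and the submitters' processing notes name GRCm38/mm10 as build and, as tools, STAR 2.7.9a, featureCounts 2.0.1 and FastQC. Strand, multi-mapping and annotation settings are not stated there. GENCODE vM21 symbols matched 38240 identifiers (99.64%).

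The main test was the quasi-likelihood F test of edgeR 4.0.16 (R 4.3.3), robust, after filterByExpr and TMM, with 1 coefficient per group, in separate fits of the 9 XEN, the 4 EpiSC and the 9 untreated libraries. Benjamini-Hochberg adjustment ran over all genes tested, and a gene was called at an adjusted p under 0.05. The fits were also run on simulated counts with the same spread in every gene and no library types. That run does not show how the tests behave on these libraries. SE was taken as |log2 fold change| / sqrt(F). CPM levels use TMM factors over all 13 libraries, and levels per kb divide by the union of exons. Ratios to the wild-type mean are ratios of CPM. A floor of 3 counts is 0.0851 to 0.513 CPM in a library and covers counting error only.

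Alternatives were DESeq2 1.42.0, other scalings, no filter, a replicate block, library type as a term, the groups compared alone, and each library left out. The 9 genes are named in every comparison, and of other lists the called members and up to 4 more by smallest p. The genes, lists and tests were chosen with earlier results of these data known. Usp9y, Zfy1 and Zfy2 were not analysed here.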

Additional observations from a re-analysis of the deposited data

Results flagged for a closer look

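Eif2s3x differed in sign between treated and untreated libraries of the 2 genotypes, with neither difference past the test. It was higher in both libraries labelled treated dXist XEN than in all 3 untreated dXist libraries, by as little as 251.8 against 249.8 CPM, and lower in both treated wild-type libraries than in both untreated wild-type libraries, so the treatment effects differed by 0.5551 on the log2 scale, dXist minus wild type. The log2 fold changes were 0.31 (SE 0.32, edgeR adjusted p = 0.556) in dXist and -0.24 (SE 0.36, adjusted p = 0.832) in wild type, and the test of their difference did not pass (SE 0.48, edgeR adjusted p = 0.761), and Aza and library type in the wild type cannot be told apart.

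Car5b was higher in both dXist EpiSC libraries than in both wild-type EpiSC libraries, and lower in all 3 dXist XEN libraries than in both wild-type XEN libraries, so the genotype effects differed by 2.029 on the log2 scale, EpiSC minus XEN. The test of that difference did not pass either (SE 0.83, edgeR adjusted p = 0.449), and the EpiSC difference alone was small, 0.16 on the log2 scale.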

How the results depend on the processing

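Groups of 2 or 3 libraries and, for Car5b, as few as 13 counts in a library limit what these tests can show. Below, library type as a term means the fit of all 13 libraries, in which that term was estimated from the EpiSC libraries. It does not adjust treated against untreated dXist XEN, where all libraries were polyA-like. In dXist against wild-type EpiSC the same fit called 0.00959% of all genes, and 0 as higher. Of the 8 counts of called members, those in wild-type XEN under treatment, and of both differences of effects, were 0 under every alternative. With all libraries kept, the alternatives called at most 6.05% of all genes for treatment in wild-type XEN (groups compared alone). They called at most 1.46% for the difference of treatment effects (DESeq2) and 3.77% for that of genotype effects (replicate block). With so few members, counts of 0 at such shares do not show that these genes were unaffected. In dXist against wild-type XEN the count was 1 (Kantr) without a filter (1.92% of all genes called) and with DESeq2 (3.08%), and 0 to 1 with a library left out. In treated against untreated dXist XEN it was 1 (Car5b) without a filter (7.71% of all genes called), with DESeq2 (15.9%) and with library type as a term (6.68%), and 0 to 2 with a library left out, where up to 23.9% were called. In treated dXist against treated wild-type XEN it was 2 (Pbdc1 and Kantr) without a filter (2.48%) and with DESeq2 (7.73%), and 0 with the replicate block, with the groups compared alone, with library type as a term and with transcripts lacking poly(A) removed, and 0 to 2 with a library left out, where up to 16.7% were called. In dXist against wild-type EpiSC it was 2 with the replicate block (5530601H04Rik and Kantr; 11.4%), and 0 with any library left out. In wild-type EpiSC against wild-type XEN it was 3 with the replicate block (Pbdc1 added; 40% of all genes called) and with library type as a term (Kantr added; 22.1%), and 1 to 3 with a library left out, where 14.4% to 23.1% were called, so that these counts are near the share of all genes.

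The replicate numbers do not establish pairing. The labels give treated dXist XEN libraries 1 and 2 the names of untreated libraries 1 and 2, and library 3 has no treated counterpart. Jpx was at 26.9 and 25.5 CPM in untreated and treated library 1, and at 5.98 and 8.92 CPM in library 2. Over all genes, deviations of these same-named libraries from their group means correlated at -0.06 and 0.09. The untreated mean includes library 3, and the treated libraries deviate from theirs in exactly opposite directions. These values therefore cannot show whether the same-named libraries are paired. Whether they share a line was not tested. Only 2 numbers are shared by any groups, and deviations of same-numbered libraries correlated at -0.14 to 0.09 in comparisons within XEN and at 0.75 in EpiSC, where the number is also the library type. Beyond the counts above, the block turned the log2 fold change of Kdm5c to -0.21 in dXist against wild-type XEN and that of Kantr to -0.076 in treated against untreated dXist XEN, where it was -0.0059 without a filter. With library type as a term, treated against untreated wild-type XEN gave 0.064 for Kdm6a, 0.26 for Pbdc1 and 0.78 for Kantr, and treated dXist against treated wild-type XEN gave 0.028 for Kdm5c. Eif2s3x in wild-type EpiSC against wild-type XEN became 0.0094 in that fit. 5530601H04Rik in treated against untreated wild-type XEN became -0.052 with scaling on autosomal genes, -0.050 with transcripts lacking poly(A) removed and -0.092 without a filter. None of these values was called in either fit, and the cause was not tested.

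Leaving out a library gave log2 fold changes in dXist against wild-type XEN of -0.21 to 0.52 for Kdm5c, -0.22 to 0.13 for Eif2s3x, -0.069 to 0.30 for Ddx3x and -0.074 to 0.54 for Utp14a. In treated against untreated wild-type XEN they were -0.21 to 0.022 for Kdm6a and -0.39 to 0.45 for 5530601H04Rik. In treated against untreated dXist XEN they were -0.025 to 0.35 for Ddx3x, -0.23 to 1.27 for 5530601H04Rik, -0.64 to 1.31 for Pbdc1 and -0.21 to 0.43 for Kantr. In treated dXist against treated wild-type XEN they were -1.04 to 0.21 for Kdm5c. In dXist against wild-type EpiSC they were -0.12 to 0.22 for Kdm6a, -0.38 to 0.71 for Pbdc1 and -0.51 to 0.29 for Utp14a. In wild-type EpiSC against wild-type XEN they were -0.28 to 0.075 for Eif2s3x and -0.33 to 1.82 for Kantr. Where a group was left with 1 library, that library is assumed to vary like the others.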
